A study of Mus musculus with 18 samples.

Results

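The response of 2 mouse lung cancer cell lines to the same hairpin against Dstyk was compared gene by gene, to separate genes that moved in opposite directions, genes that moved in 1 line alone and genes that moved alike. The 12 libraries were those carrying the TPLKO vector, out of 18 in the series, and they fell into 4 of its 6 groups with 3 libraries each. LLC cells, of strain C57BL/6 and labelled as lung adenocarcinoma, carried either the empty TPLKO vector or TPLKO with the hairpin sh3. UN-SCC679 cells, of strain A/J and labelled as lung squamous carcinoma, carried the same pair of vectors. All 12 libraries, the empty-vector controls included, came from cells given doxycycline. The arms were taken from the sample titles, because a label naming lowered DSTYK stands on the controls as well. Since 1 hairpin was used, an effect of sh3 on other transcripts cannot be told apart from an effect of lower Dstyk. Line, strain and tumour type cannot be told apart either, and the labels do not say whether replicates were separate cultures, so the p-values reflect library-to-library spread, which may be technical. Of 36047 genes with a listed transcript, 15399 had enough counts to be tested, and 11111 of these had a level in both lines, meaning a mean of at least 1 CPM (counts scaled to a common library size) in at least 1 arm of each line.

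DSTYK is a kinase with serine/threonine and tyrosine specificity whose kinase domain resembles those of the RIP kinases, which act in inflammatory and cell death signalling. LLC is the Lewis lung carcinoma line, a transplantable mouse tumour widely used in immunocompetent hosts. The gene groups followed below are those that cells adjust when secretion, lysosomal work, sterol supply, oxidative load or growth signals change, each driven by its own transcription factors.

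The depth ran from 40525385 to 46528071 estimated counts per library, and the variation between replicates was small, with a common biological coefficient of variation of 3.27%. The lineage labels were checked against marker genes. In UN-SCC679 with the empty vector, 6 of 16 squamous markers reached 1 CPM, among them the lineage factor Sox2 at 35.4 CPM and the desmosome and membrane genes Pkp1 at 202 CPM and Perp at 168 CPM, but the basal keratin Krt5 was at 0. UN-SCC679 also held the lung factor Nkx2-1 at 56.1 CPM and the fibroblast collagen gene Col1a2 at 11637 CPM. In LLC, none of the 16 squamous markers reached 1 CPM in either arm. Of 14 epithelial markers, 2 reached 1 CPM in LLC controls, the keratin Krt18 at 34.0 CPM and the tight junction gene Ocln at 7.49 CPM. The adhesion genes Cdh1 and Epcam were below 0.1 CPM in both LLC arms. They were as low in UN-SCC679 controls, at 0.0148 and 0.0167 CPM, where 4 of the 14 epithelial markers reached 1 CPM. Of 14 alveolar and club cell markers, 3 reached 1 CPM in LLC controls, Abca3 at 41.7 CPM, Ager at 1.92 CPM and Hopx at 1.78 CPM. Nkx2-1 and the surfactant gene Sftpc were at 0 in LLC controls, and Sftpc was at 0.0148 CPM in UN-SCC679 controls. The 14 leukocyte markers summed to between 2.39 and 9.68 CPM over the 12 libraries. The macrophage gene Adgre1 and the adaptor gene Tyrobp were at 0 in all of them. The 10 endothelial markers summed to 100 to 106 CPM in LLC controls and 124 to 127 CPM with sh3. Nearly all of this was Eng, at 101 and 123 CPM as group means. In UN-SCC679 they summed to 3.64 to 4.52 CPM in controls and 7.05 to 7.51 CPM with sh3. Among them, Cldn5 was at 0 in all libraries. The sum of the leukocyte markers was 4.34 to 5.55 CPM in UN-SCC679 controls and 8.23 to 9.68 CPM with sh3, and its part in the results was not tested. In such bulk libraries, fewer cells of a type and less RNA per cell cannot be told apart.

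Dstyk (chr1:132417555-132466958, GRCm38) was lower with sh3 in both lines, and less so in UN-SCC679. In LLC it stood at 42.8, 40.6 and 44.9 CPM with the empty vector and at 22.7, 23.9 and 22.4 CPM with sh3. In UN-SCC679 it stood at 36.3, 36.4 and 38.1 CPM with the empty vector and at 26.7, 26.7 and 25.2 CPM with sh3. The arms did not overlap in either line. The log2 fold change was -0.89 ± 0.0438 (SE, n = 3 per arm) in LLC and -0.50 ± 0.0441 in UN-SCC679, so that Dstyk fell by 0.40 less in UN-SCC679 on the log2 scale (SE 0.0622, adjusted p = 3.50e-05, edgeR's quasi-likelihood test with Benjamini-Hochberg adjustment). Everything below therefore compares responses to unequal lowering of the target.

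The effects of sh3 were weakly correlated between the lines. A gene is called here when its adjusted p in edgeR's quasi-likelihood test was under 0.05, and a difference is the effect in UN-SCC679 minus the effect in LLC, on the log2 scale. Differences were called for 9230 of 15399 genes (59.9%), 4909 higher in UN-SCC679 (31.9%) and 4321 lower (28.1%), and 2393 of them (15.5%) were at least 2-fold, 8.69% of all genes higher and 6.85% lower. The effect itself was called for 65.4% of genes in LLC (32.5% higher, 32.9% lower) and for 59.7% in UN-SCC679 (30.0% higher, 29.7% lower). Among the 11111 genes with a level in both lines, 8206 (73.9%) had a called difference. The median size of the effect was 0.32 in LLC and 0.23 in UN-SCC679, and that of the difference was 0.35. Across these genes, which are not independent replicates, Pearson's r between the effects was 0.159 and Spearman's rho was 0.175, and 57.3% had the same sign in both lines. In the 1406 genes with a called effect of at least 2-fold in either line, r was 0.0850 and 61.1% had the same sign.

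Of 6582 genes with a level in both lines and both effects called, 38.9% moved in opposite directions and the others the same way. The median size of the effects of the opposite genes was 0.35 in LLC and 0.30 in UN-SCC679 on the log2 scale. Both effects were called with opposite signs and a called difference in 2558 of the 11111 genes (23.0%), of which 1346 (12.1%) rose in LLC and fell in UN-SCC679, and 1212 (10.9%) did the reverse. Another 2564 genes (23.1%) moved the same way by unlike amounts, 1628 of them more in LLC and 936 more in UN-SCC679. For 1460 genes (13.1%) both effects were called in 1 direction with no called difference. The effect and the difference were called for LLC but not UN-SCC679 in 1981 genes (17.8%), and for UN-SCC679 but not LLC in 1048 genes (9.43%). Genes expressed in a single line stand apart, since their difference cannot be read as a change of response. There were 694 genes with a level in LLC alone, of which 300 rose and 108 fell there. Another 1195 had a level in UN-SCC679 alone, of which 476 rose and 227 fell there. Over all genes tested, 32.5% rose and 32.9% fell in LLC, and 30.0% rose and 29.7% fell in UN-SCC679. A level in both lines could also rest on 1 arm of a line. Among others named below, Gas7, Peg10, Prrx1, Ptgs1 and Nqo1 reached 1 CPM in UN-SCC679 with sh3 alone. Their UN-SCC679 controls were at 0.0314, 0.0167, 0.0719, 0.0871 and 0.508 CPM. The differences of such genes carry the same limit as those of genes expressed in a single line.

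Stricter classes were formed to describe the clearest cases. A strong opposite gene moved by at least 1.5-fold in each line, a strong one-line gene moved by at least 2-fold in that line while the 95% interval of the other effect lay within 1.2-fold either way, and a strong shared gene moved the same way by at least 1.5-fold in both. By these limits 120 genes were opposite with LLC up (1.08%) and 106 opposite with UN-SCC679 up (0.954%). In LLC alone 76 rose (0.684%) and 77 fell (0.693%), whereas in UN-SCC679 alone 55 rose (0.495%) and 17 fell (0.153%). Strong shared genes were mostly increases, with 360 up in both lines (3.24%) and 88 down in both (0.792%), whereas with no limit on size 1833 genes were higher in both (16.5%) and 2191 lower in both (19.7%). For 112 of the 360 strong shared increases and 54 of the 88 strong shared decreases, the interval of the difference lay within 1.5-fold. At the size limit of the opposite class, Senp7 was the closest gene inside, with effects of -0.586 and 0.855, and Gpr85 the closest outside, with 0.585 and -0.589.

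**Figure D1:**
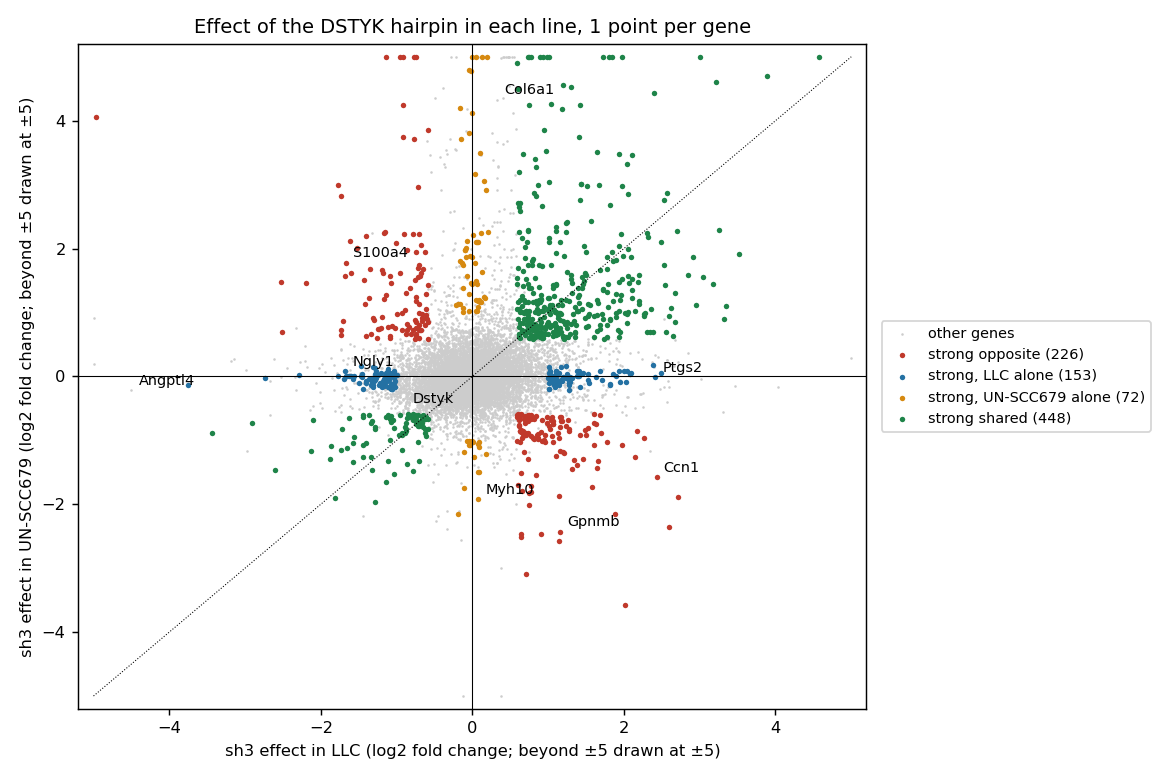
The effect of sh3 in LLC (x axis) and in UN-SCC679 (y axis), as log2 fold changes, for the 11111 genes with a level in both lines, with values beyond 5 in size drawn at 5. The 226 strong opposite genes (red) fill both off-diagonal quadrants, the 153 LLC-alone (blue) and 72 UN-SCC679-alone genes (orange) lie along the axes, and most of the 448 strong shared genes (green) are increases.

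The leading genes that rose in LLC and fell in UN-SCC679 included 2 that encode secreted matrix proteins, Ccn1 and Thbs1. Ccn1, which encodes a secreted matricellular protein (alias Cyr61), stood at 11.4, 11.5 and 12.7 CPM in LLC controls and at 63.6, 62.7 and 66.2 CPM with sh3. In UN-SCC679 its levels were 535, 538 and 543 CPM in controls and 179.8, 181 and 180.1 CPM with sh3. All sh3 libraries were above the controls in LLC and below them in UN-SCC679, a rise of 5.4-fold against a fall of 2.99-fold, and the difference was -4.01 ± 0.0412 (SE, adjusted p = 3.04e-19). Thbs1, encoding thrombospondin 1, had a very different starting level: 2.04, 2.32 and 2.27 CPM in LLC controls against 9639.6, 9831 and 9961 CPM in those of UN-SCC679. It rose 2.52-fold in the former, to 5.63, 5.6 and 5.46 CPM, and fell 2.48-fold in the latter, to 3939, 3922 and 4026 CPM.

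The same pattern held for genes of other functions. Atf3, a stress-induced transcription factor, was at 23.6, 20.3 and 21.2 CPM in LLC controls and 54.5, 54.4 and 54.4 CPM with sh3, against 5.504, 5.62 and 6.65 CPM and 2.17, 2.21 and 2.12 CPM in UN-SCC679. Dkk2, a secreted modulator of Wnt signalling, rose 2.76-fold in LLC and fell 2.45-fold in UN-SCC679, from controls at 12.5, 11.9 and 11.3 CPM and 16.4, 14.9 and 16.4 CPM. Mid2, a microtubule-associated ubiquitin ligase of the TRIM family, rose 2.61-fold and fell 2.603-fold. The leading genes were chosen for arms that did not overlap, as was so for 63.3% of all genes with a level in both lines, and nothing is read from it.

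Ccn1, Thbs1 and Ankrd1 are known targets of the coactivators YAP and TAZ, which bind DNA through TEAD factors, and a list of 24 such targets was written after these genes were seen, so its direction is no independent evidence. Of its 20 members with a level in both lines, 9 were opposite, all 9 of them up in LLC, 17 rose in LLC, and 12 fell in UN-SCC679. Of all 11111 such genes, 12.1% were opposite with LLC up, 38.0% rose in LLC and 37.9% fell in UN-SCC679. The median effects were 0.41 and -0.18. Ankrd1, a nuclear ankyrin-repeat protein chosen after its values were seen, was at 6.601, 6.33 and 6.81 CPM and 19.9, 20.2 and 20.1 CPM in LLC, and at 51.3, 54.2 and 52.6 CPM and 26.04, 23.8 and 25.3 CPM in UN-SCC679. Gadd45b, a stress sensor chosen likewise, rose 2.83-fold and fell 1.89-fold. The list did not move as a block: 6 members rose in both lines and 3 fell in both, against 16.5% and 19.7% of all such genes. The TEAD motif CATTCC, read on the other strand as GGAATG, occurred in 8 of 16 promoters of the list (50%) and in 14.7% of all 32851 RefSeq promoters, taken from 250 bases before to 50 after the start. Of the 15 members with a promoter, 8 were opposite, and 6 of these were among the 8 with a match. The stretches with the motif in capitals are shown for the members named, as RefSeq sequence on GRCm38.p6, at chr3:145650063-145650108 (minus strand) and chr19:36119942-36120074 (minus strand), because the pair had the largest opposite movement among the listed genes with a match. A match is a string of letters, not a site of binding. The lists searched for motifs, here and below, hold genes already known for the response, so a higher share of matches is no independent evidence. A link between a match and the direction of an effect was not tested.
Ccn1: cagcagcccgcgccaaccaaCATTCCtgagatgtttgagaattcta
Ankrd1: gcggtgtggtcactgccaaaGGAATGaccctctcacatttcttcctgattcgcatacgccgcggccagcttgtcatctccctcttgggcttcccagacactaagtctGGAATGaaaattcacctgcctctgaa

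**Figure D2:**
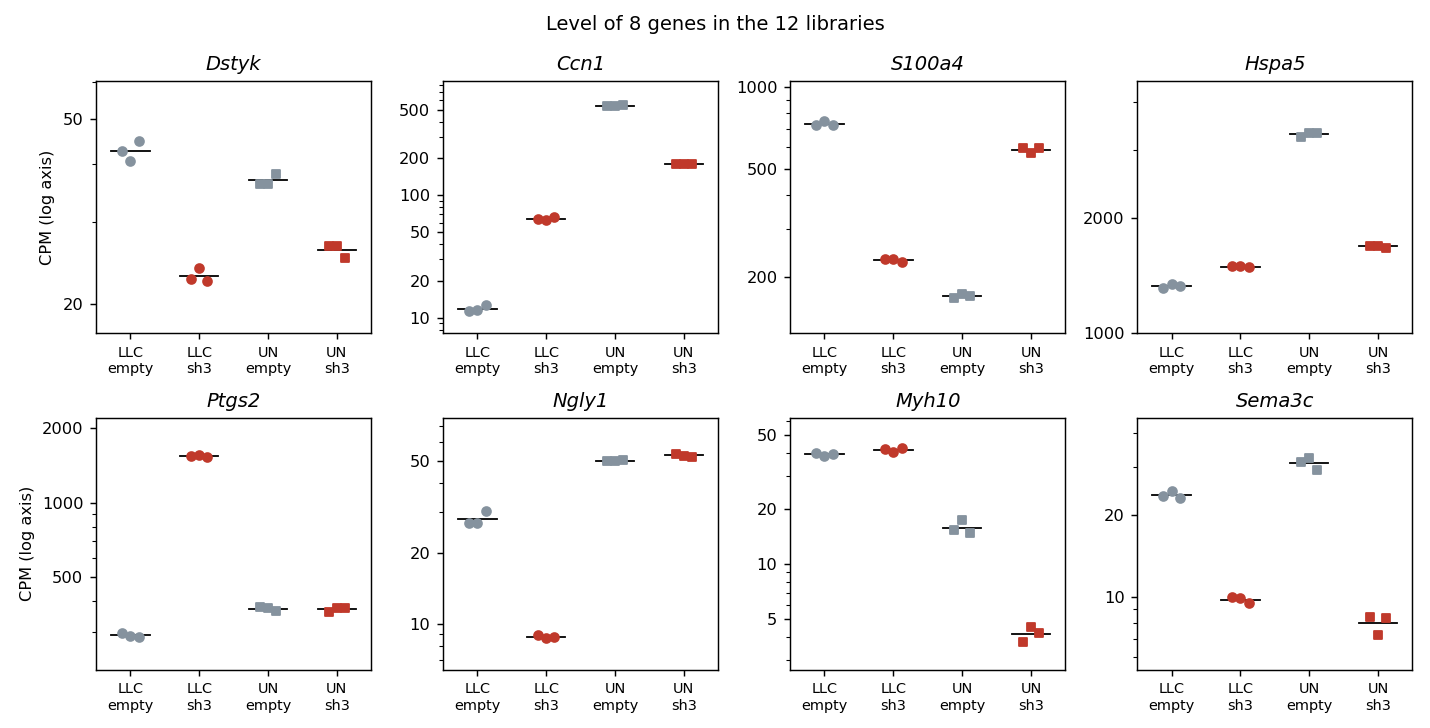
CPM on a log axis of 8 genes in each of the 12 libraries, with controls in grey, sh3 in red, LLC as circles, UN-SCC679 as squares and group means as lines. Ccn1 and Hspa5 rise in LLC and fall in UN-SCC679, S100a4 does the reverse, Ptgs2 and Ngly1 move in LLC, Myh10 moves in UN-SCC679, and Dstyk and Sema3c fall in both.

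The reverse pattern, down in LLC and up in UN-SCC679, included genes of motility and immune signalling. S100a4, a calcium-binding protein often used as a marker of motile mesenchymal cells, stood at 725, 751 and 727 CPM in LLC controls and 233, 233 and 228 CPM with sh3. The UN-SCC679 libraries held 168, 174 and 171 CPM in controls and 597, 570.3 and 597 CPM with sh3. The lines exchanged their order: controls were higher in LLC and sh3 libraries were higher in UN-SCC679, with a difference of 3.44 ± 0.0315 (SE, adjusted p = 6.50e-20). Tle2, a corepressor of the Groucho family, moved 3.04-fold down in LLC and 3.07-fold up in UN-SCC679, from 12.5, 11.6 and 12.5 CPM to 3.83, 3.76 and 4.43 CPM and from 18.2, 17.1 and 17.6 CPM to 55.6, 54.7 and 52.5 CPM. Blnk, a linker protein of B cell receptor signalling, fell 3.05-fold and rose 4.35-fold. Ackr3, an atypical chemokine receptor that scavenges CXCL12, was low in LLC, at 2.303, 2.64 and 2.44 CPM in controls and 1.14, 0.641 and 0.784 CPM with sh3, and rose in UN-SCC679 from 9.13, 9.796 and 10.4 CPM to 37.2, 40.3 and 40.3 CPM.

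Further cases rested on very low levels in 1 arm. Ppl, encoding the cornified envelope protein periplakin, was at 1.51, 1.63 and 1.23 CPM in LLC controls and at 2 counts in each LLC sh3 library, and it rose in UN-SCC679 from 2.55, 2.18 and 2.31 CPM to 39.3, 39.2 and 39.1 CPM. Gpr141, an orphan receptor, fell in LLC from 25.4, 25.1 and 24.2 CPM to 7.23, 7.93 and 6.74 CPM, and in UN-SCC679 went from 0.168, 0.1999 and 0.125 CPM to 1.19, 1.09 and 1.78 CPM. Peg10, an imprinted gene of retrotransposon origin chosen after its values were seen, fell in LLC from 97.2, 99.4 and 98.8 CPM to 53.6, 51.8 and 51.96 CPM. In UN-SCC679 it was at 0, 0 and 0.0502 CPM in controls and at 29.6, 28.9 and 28.6 CPM with sh3.

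Most strong opposite genes had the higher control level in the line where they fell. Of the 120 with LLC up, 84 were higher in UN-SCC679 controls than in LLC controls, and of the 106 with UN-SCC679 up, 81 were higher in LLC controls. The gap between the lines was smaller with sh3 than with the empty vector for 67 of the 120 and 61 of the 106, and the order of the lines turned for 41 and 43. These counts describe the genes; the controls enter both the baseline and the effect, so they are not independent of the direction that defined the class.

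Responses confined by the limits to LLC included the prostaglandin enzyme gene Ptgs2. Ptgs2, encoding cyclooxygenase 2, stood at 297, 289.8 and 288 CPM in LLC controls and 1549.5, 1561 and 1530.5 CPM with sh3, and at 381, 375 and 365 CPM and 361, 375 and 377 CPM in the arms of UN-SCC679. The effect was 5.31-fold in LLC, while in UN-SCC679 the 95% interval of the log2 effect ran from -0.05 to 0.03. Pim1, a serine/threonine kinase downstream of cytokine receptors, went from 9.25, 10.3 and 8.94 CPM to 53.9, 53.03 and 52.7 CPM in LLC and was at 9.37, 8.62 and 8.36 CPM and 8.67, 9.103 and 9.74 CPM in UN-SCC679. Pfn2, an actin monomer-binding profilin, rose 5.26-fold in LLC from below 1 CPM, and its rise of 1.14-fold in UN-SCC679, from a much higher level, was called but within 1.2-fold. Among the decreases, Ngly1, the enzyme that removes N-glycans from misfolded glycoproteins, went from 27.1, 26.9 and 30.5 CPM to 8.94, 8.68 and 8.75 CPM in LLC, and was at 49.7, 49.9 and 50.2 CPM and 53.6, 52.4 and 52.02 CPM in UN-SCC679. Mgst3, a microsomal glutathione transferase, fell 3.4-fold in LLC against a log2 effect of 0.01 ± 0.0705 (SE) in UN-SCC679. Sorcs2, a sorting receptor, fell in LLC from 1.21, 1.38 and 1.06 CPM to 0.153, 0.0855 and 0.0224 CPM, and it fell 1.101-fold in UN-SCC679, from 41.7, 44.1 and 45.3 CPM to 38.8, 38.9 and 41.3 CPM. The large proteoglycan gene Vcan, chosen after its values were seen, fell 3.19-fold in LLC from 954, 956 and 947 CPM to 296, 302 and 297 CPM, and stood at 53.2, 58.1 and 56.3 CPM and 55.7, 57.1 and 56.6 CPM in UN-SCC679.

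Responses confined by the limits to UN-SCC679 were mostly increases, and the leading ones started near 0. Gas7, a cytoskeletal adaptor, had 3, 1 and 0 counts in the UN-SCC679 controls and 21.5, 21.9 and 21.99 CPM with sh3, a level like that of both LLC arms, at 19.4, 20.8 and 21.6 CPM and 21.5, 21.1 and 21.2 CPM. Ptgs1, encoding cyclooxygenase 1, had 3, 4 and 4 counts in those controls and 6.74, 6.91 and 6.48 CPM with sh3, far below the 417, 417 and 419 CPM of LLC controls. Arhgap28, a GTPase-activating protein, had 1, 2 and 0 counts and then 1.93, 1.26 and 1.58 CPM. Ly6e, a GPI-anchored surface protein chosen after its values were seen, went from 3.34, 4.42 and 3.59 CPM to 104, 102 and 106 CPM in UN-SCC679 and was at 986, 999 and 993 CPM and 989, 976 and 964 CPM in LLC; the Ly6 family holds close copies, so its counts are uncertain. Decreases were fewer. Myh10, non-muscle myosin IIB, went from 15.2, 17.2 and 14.8 CPM to 3.76, 4.56 and 4.21 CPM in UN-SCC679 and was at 40.1, 38.8 and 39.7 CPM and 42.3, 40.4 and 42.4 CPM in LLC. Fxyd5, a regulator of the sodium pump, fell 3.33-fold against a LLC effect of -0.11 ± 0.0594 (SE). Sh3bgrl2, a small thioredoxin-fold protein, fell 4.43-fold in UN-SCC679 and 1.14-fold in LLC. Chosen after their values were seen, the actin-binding tropomyosin gene Tpm1 and the growth factor-binding gene Igfbp4 fell 2.09-fold and 2.26-fold in UN-SCC679, with LLC effects of 0.08 and -0.11 on the log2 scale.

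Shared increases included complement and detoxification genes. C1s1, a protease of the classical complement pathway, went from 0.724, 0.493 and 0.497 CPM to 2.56, 2.18 and 2.75 CPM in LLC and from 4.33, 4.09 and 4.62 CPM to 47.4, 49.3 and 46.9 CPM in UN-SCC679. Its partner protease gene C1ra, chosen after its values were seen, rose 3.71-fold in LLC and 3.54-fold in UN-SCC679, and the 95% interval of the difference ran from -0.19 to 0.05. Pdcd4, an inhibitor of translation chosen in the same way, rose 3.59-fold and 3.85-fold, with an interval of -0.02 to 0.22, but the difference was -0.15 once each chromosome's median effect was taken out. Gsta1, a glutathione transferase with close copies that make its counts uncertain, rose 5.63-fold and 4.296-fold. Kcnh2, a potassium channel, rose 4.12-fold and 10-fold, a difference of 1.28 that came to -0.08 with limma on log2(TPM + 1). Rab3il1, an exchange factor for Rab GTPases, rose 3.89-fold and 4.68-fold, in UN-SCC679 from 0.1202, 0.267 and 0.452 CPM, and by the same limma fit its difference was -1.08. The smooth muscle actin gene Acta2, chosen after its values were seen, rose 3.42-fold in LLC and 3.62-fold in UN-SCC679. Shared decreases included genes of the matrix and of guidance. Sema3c, a secreted semaphorin, went from 23.5, 24.5 and 23.1 CPM to 9.97, 9.87 and 9.47 CPM in LLC and from 31.3, 32.6 and 29.4 CPM to 8.45, 7.26 and 8.33 CPM in UN-SCC679. Tnc, encoding the matrix glycoprotein tenascin C, fell 2.21-fold and 3.16-fold, and its difference of -0.52 (adjusted p = 0.0176) was no longer called without the third LLC sh3 library, at -0.44 (adjusted p = 0.0716). Aif1l, an actin-bundling protein, fell 2.97-fold and 2.53-fold, and Dmxl2, a regulator of vesicular proton pumps, fell 2.52-fold and 2.77-fold.

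Gene lists were then followed through both lines. For each, counts are over members with a level in both lines, and are read beside the shares of all 11111 such genes: 38.0% rose and 42.1% fell in LLC, 33.1% rose and 37.9% fell in UN-SCC679, the difference was higher in UN-SCC679 for 38.7% and lower for 35.2%, 23.0% were opposite, 16.5% rose in both and 19.7% fell in both. The median effects of all these genes were -0.024 in LLC and -0.020 in UN-SCC679, with a median difference of 0.022. The lists were described and not tested.

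Genes of protein folding in the endoplasmic reticulum (ER) moved apart in the lines. Of 26 ER chaperone and unfolded protein response genes, 18 rose in LLC and 24 fell in UN-SCC679, 17 were opposite with LLC up, 6 fell in both and 1 rose in both, and 23 had a lower difference. The median effects were 0.21 and -0.49. Hspa5, the central ER chaperone BiP, stood at 1309, 1340.1 and 1329.5 CPM in LLC controls and 1491, 1493 and 1484 CPM with sh3, against 3234, 3315 and 3333 CPM and 1690.5, 1684 and 1669.9 CPM in UN-SCC679. The arms did not overlap in either line, but the size differed: a rise of 1.12-fold in LLC and a fall of 1.96-fold in UN-SCC679, which brought the lines closer. Hyou1, an ER member of the Hsp110 family, rose 1.51-fold and fell 1.51-fold. Further members were chosen after their values were seen. Sdf2l1, a cofactor of BiP, was at 21.6, 23.2 and 21.9 CPM and 52.01, 52.9 and 55.1 CPM in LLC and at 118, 115 and 119 CPM and 75.8, 72.5 and 71.1 CPM in UN-SCC679. The folding genes Calr, Pdia6 and Hsp90b1 rose 1.25-fold, 1.6-fold and 1.32-fold in LLC and fell 1.57-fold, 1.298-fold and 1.4-fold in UN-SCC679. Ddit3, the stress factor CHOP, rose 1.62-fold and fell 1.86-fold.

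The ER stress element, CCAAT followed by CCACG with 9 bases of any kind between them (CGTGG and then ATTGG on the other strand), to which NF-Y and ATF6 are known to bind, occurred in 8 of 22 promoters of the list (36.4%) and in 0.119% of the 32851 RefSeq promoters. Of the 22 members with a promoter, 13 were opposite, and 5 of these were among the 8 with a match. The stretches around the matches are printed for the 4 opposite chaperone genes named above, from RefSeq on GRCm38.p6, with the element in capitals. They lie at chr2:34772005-34772063 (plus strand), chr10:86705513-86705676 (minus strand, with a match in each orientation), chr8:84847055-84847113 (minus strand) and chr12:17266471-17266529 (plus strand).
Hspa5: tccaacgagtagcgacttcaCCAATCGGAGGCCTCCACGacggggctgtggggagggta
Hsp90b1: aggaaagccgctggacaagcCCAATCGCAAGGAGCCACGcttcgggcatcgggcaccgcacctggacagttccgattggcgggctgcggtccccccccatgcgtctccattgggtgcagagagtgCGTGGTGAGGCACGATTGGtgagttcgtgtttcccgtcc
Calr: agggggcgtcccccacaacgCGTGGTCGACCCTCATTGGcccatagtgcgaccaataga
Pdia6: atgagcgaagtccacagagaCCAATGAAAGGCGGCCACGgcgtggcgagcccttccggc

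Most lysosomal and sterol genes rose in LLC, most fell in UN-SCC679, and most proton pump genes fell in UN-SCC679. Of 36 lysosomal genes, 25 rose in LLC and 23 fell in UN-SCC679, 17 were opposite with LLC up, and the medians were 0.47 and -0.19. Gpnmb, a transmembrane glycoprotein induced with lysosomal stress, stood at 19.5, 17.3 and 17.98 CPM in LLC controls and 43.3, 40.9 and 38.6 CPM with sh3, and at 40.5, 40.7 and 40.7 CPM and 7.46, 7.68 and 7.45 CPM in UN-SCC679. Asah1, acid ceramidase, rose 1.46-fold and fell 1.605-fold, and Ctsc, a protease chosen after its values were seen, rose 1.52-fold and fell 3.24-fold. Lamp1, a membrane protein of lysosomes chosen in the same way, fell in both lines, by 1.08-fold and 1.66-fold. Of 16 subunits of the V-ATPase, which acidifies the lysosome, 14 fell in UN-SCC679 and none rose, while 8 rose and 5 fell in LLC. There, 7 were opposite, with medians of 0.08 and -0.41. Atp6v0b rose 1.14-fold and fell 1.93-fold, and Atp6v1g1 rose 1.32-fold and fell 1.47-fold. The motif TCACGTGA, the core of the element bound by MiT/TFE factors and its own reverse complement, was in 4 of 37 lysosomal promoters (10.8%), 3 of 13 V-ATPase promoters (23.1%) and 0.974% of all promoters. None of the 7 genes with a match was opposite.

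Of 25 genes of cholesterol synthesis and uptake, 20 rose in LLC and 19 fell in UN-SCC679. There were 15 opposite genes, all with LLC up, and the medians were 0.43 and -0.24. Msmo1, a sterol C4 oxidase, stood at 39.2, 41.02 and 39.7 CPM and 52.4, 54.9 and 54.2 CPM in LLC, and at 405, 407 and 412 CPM and 208, 214 and 209.8 CPM in UN-SCC679. Fdps and Mvd, enzymes of the mevalonate pathway chosen after their values were seen, rose 1.73-fold and 2.16-fold and fell 1.55-fold and 1.39-fold. The sterol response motif TCACNCCAC, or GTGGNGTGA on the other strand, was in 1 of 22 promoters of the list (4.55%) and in 1.24% of all. With each chromosome's median effect taken out, the medians of the difference for the ER, lysosomal, V-ATPase and sterol lists kept their sign.

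**Figure D3:**
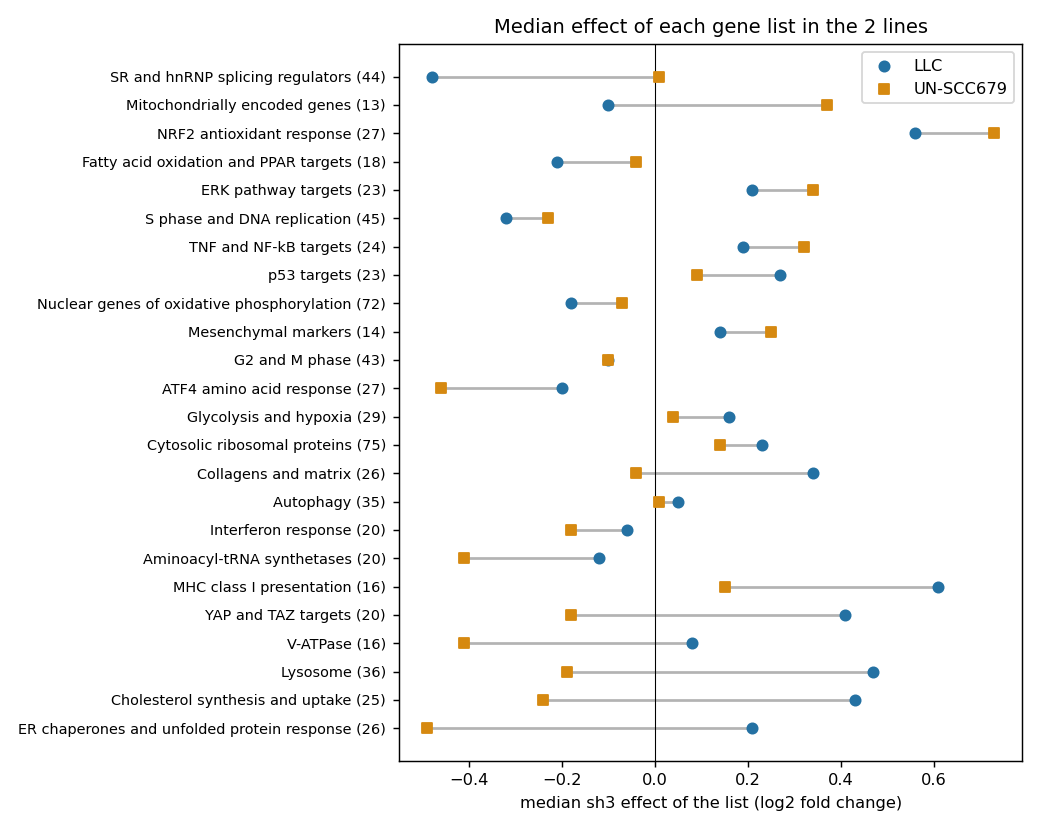
Median log2 effect of sh3 in LLC (blue circles) and UN-SCC679 (orange squares) for each list with at least 10 members with a level in both lines, ordered by the median difference, with the number of members in brackets. The ER, sterol, lysosomal, V-ATPase and YAP and TAZ lists lie right of 0 in LLC and left of 0 in UN-SCC679, mitochondrially encoded genes the reverse. In UN-SCC679, collagens and matrix lie just left of 0 (-0.04, LLC 0.34) and splicing regulators just right (0.01, LLC -0.48).

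Most antioxidant genes rose in both lines. Of 27 genes of the NRF2 response, 20 rose in both and 1 fell in both, 6 were opposite, and the medians were 0.56 and 0.73. The size was unlike for most: 17 differences were higher and 8 lower in UN-SCC679. Nqo1, a quinone reductase, went from 128, 128 and 129 CPM to 446, 446 and 444 CPM in LLC and from 0.457, 0.666 and 0.401 CPM to 38.6, 36.9 and 36.4 CPM in UN-SCC679, so that the rise was steeper where the level was near 0. Gstm1 and Srxn1, chosen after their values were seen, encode a glutathione transferase and sulfiredoxin. Gstm1 rose 1.58-fold and 4.48-fold, and Srxn1 rose 1.202-fold and 1.88-fold. Enzymes of the pentose phosphate pathway went against the list in LLC: Pgd fell 1.16-fold there and rose 2.18-fold in UN-SCC679, as did G6pdx, chosen after its values were seen, by 1.28-fold and 1.76-fold. The antioxidant response element TGACNNNGC, or GCNNNGTCA on the other strand, was in 11 of 29 promoters (37.9%) and in 12.4% of all. That of Gclm, a subunit of the enzyme that makes glutathione, is shown for its single match, which is in capitals, at chr3:122245403-122245451 of GRCm38.p6 (plus strand). Gclm, chosen after its values were seen, rose by 0.61 in LLC and 0.45 in UN-SCC679 on the log2 scale.
Gclm: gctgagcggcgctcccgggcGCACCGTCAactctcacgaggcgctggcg

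Ribosomal protein genes also moved together, by small amounts. Of 75, 64 rose in LLC and 56 in UN-SCC679, 51 in both and 2 were opposite, with medians of 0.23 and 0.14. Rpl13a rose 1.38-fold and 1.09-fold, while Rpl7a fell 1.15-fold in LLC and rose 1.12-fold in UN-SCC679; processed pseudogenes make these counts uncertain. Most genes of DNA replication fell in each line. Of 45, 38 fell in LLC and 33 in UN-SCC679, 27 in both and 5 were opposite, with medians of -0.32 and -0.23, and the difference was higher in UN-SCC679 for 28 and lower for 12. Tyms, thymidylate synthase, fell in LLC from 86.6, 81.2 and 82.1 CPM to 34.9, 32.9 and 34.5 CPM and was at 80.6, 80.9 and 82.2 CPM and 76.6, 80.5 and 77.1 CPM in UN-SCC679, where its effect was not called. The replicative helicase genes Mcm7 and Mcm5, the latter chosen after its values were seen, fell 1.81-fold and 2.02-fold in LLC and 1.204-fold and 1.23-fold in UN-SCC679. Genes of G2 and mitosis were mixed: of 43, 15 fell in both, 4 rose in both and 14 were opposite, with medians of -0.10 in each line. The mitotic kinesin genes Kif20a and Kif11 fell 1.56-fold and 1.33-fold in LLC and rose 1.103-fold and 1.25-fold in UN-SCC679.

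**Figure D4:**
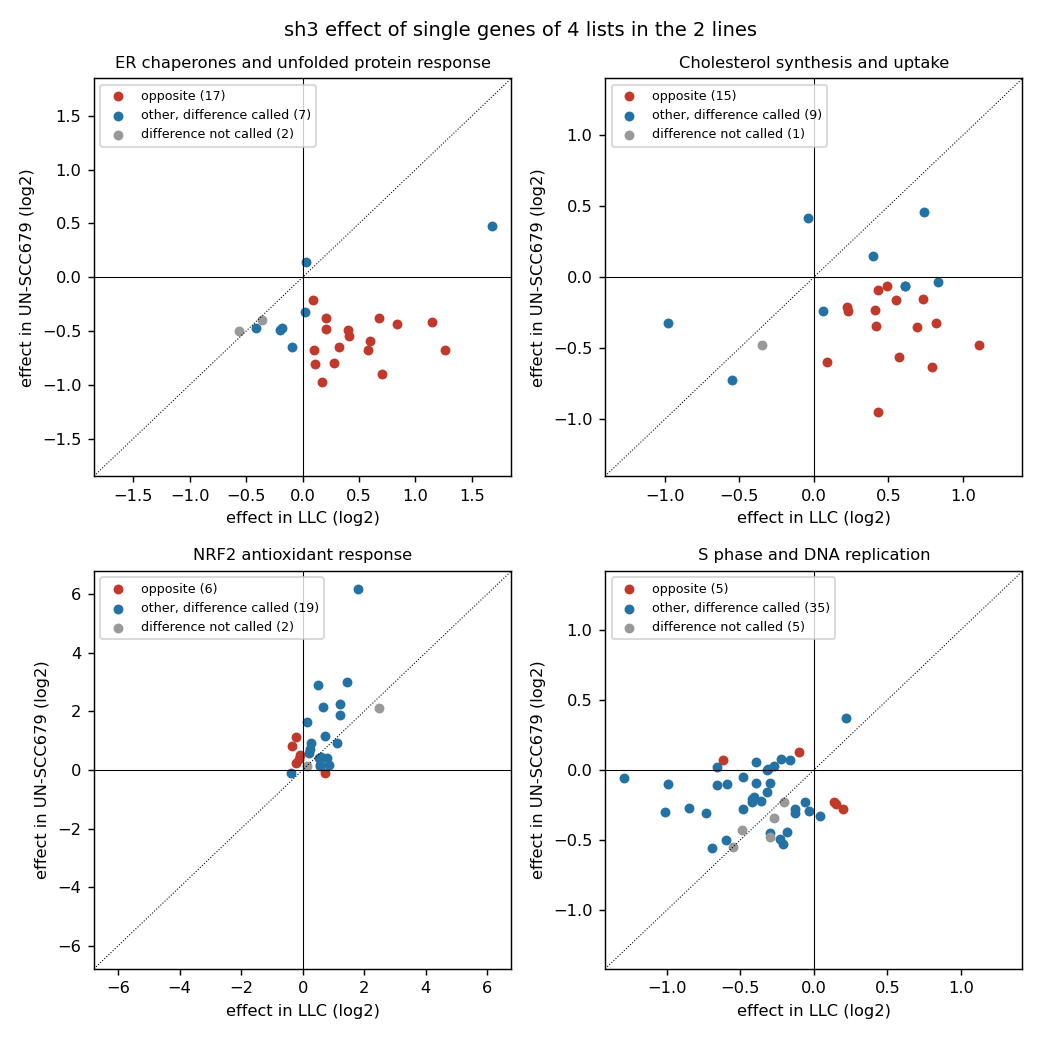
Log2 effect of sh3 in LLC (x axis) and UN-SCC679 (y axis) for single members of 4 lists, with opposite genes in red, other called differences in blue, uncalled differences in grey and the dotted line marking equal effects. ER and sterol genes crowd the lower right quadrant, NRF2 genes the upper right, and replication genes the lower left.

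Most genes of fatty acid use and most mitochondrial transcripts had a higher difference, lower in LLC or higher in UN-SCC679. Of 18 genes of fatty acid oxidation and PPAR targets, 10 fell and 5 rose in LLC, 9 fell and 6 rose in UN-SCC679, and 12 differences were higher in UN-SCC679. Cpt1a, the enzyme that commits fatty acids to mitochondrial import, stood at 158, 168 and 160.2 CPM and 33.7, 32.9 and 34.4 CPM in LLC and at 96.2, 96.8 and 95.7 CPM and 113, 115 and 111 CPM in UN-SCC679. Angptl4, a secreted lipase inhibitor, fell 22.7-fold in LLC, from 38.99, 38.8 and 37.5 CPM to 1.91, 1.496 and 1.68 CPM, and 1.16-fold in UN-SCC679. The medians of the list, -0.21 and -0.04, hide this spread. Of 13 mitochondrially encoded genes, 8 fell in LLC and 12 rose in UN-SCC679, 8 were opposite, and the medians were -0.10 and 0.37. mt-Cytb, of complex III, stood at 3538, 3546 and 3463 CPM and 1368, 1354 and 1373 CPM in LLC and at 3258, 3347 and 3350.5 CPM and 4363, 4372 and 4303 CPM in UN-SCC679. mt-Nd1 and mt-Nd3, of complex I, fell 1.51-fold and 1.71-fold and rose 1.23-fold and 1.42-fold. mt-Co1, of complex IV, went the other way in LLC, with a rise of 1.92-fold, and rose 1.29-fold in UN-SCC679; mt-Nd3 and mt-Co1 were chosen after their values were seen, and nuclear copies make all of these counts uncertain. Of 72 nuclear genes of oxidative phosphorylation, 46 fell in LLC and 34 in UN-SCC679, 20 in both, and 13 of 15 opposite genes rose in UN-SCC679, with medians of -0.18 and -0.07. Atp5a1, of the ATP synthase, fell 1.44-fold in LLC with a log2 effect of -0.00 ± 0.0151 (SE) in UN-SCC679. Uqcrh, of complex III, fell 1.74-fold and rose 1.14-fold.

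Regulators of splicing were lower in LLC. A list of 44 SR and hnRNP genes was written after some of its members were seen among the LLC decreases, so its direction is no independent evidence. Of these, 40 fell in LLC and 14 in UN-SCC679, where 14 others rose. All 13 opposite genes had UN-SCC679 up, 40 differences were higher in UN-SCC679, and the medians were -0.48 and 0.01. The splicing factor gene Srsf1 stood at 257, 254 and 252 CPM in LLC controls and 94.6, 93.3 and 94.4 CPM with sh3, and at 224, 219 and 210.4 CPM and 183, 189 and 196 CPM in UN-SCC679. Sfpq, a multifunctional RNA-binding protein, fell 2.303-fold in LLC and had an effect of 0.05 in UN-SCC679. Both genes were chosen after their values were seen.

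Antigen presentation genes rose more in LLC. Among the 16 genes of MHC class I presentation, 10 went up in both lines and 3 went down in both, 10 differences were lower in UN-SCC679 and none was higher, and the medians were 0.61 and 0.15. B2m, the invariant light chain, stood at 248, 244 and 242 CPM and 546, 542 and 530.2 CPM in LLC and at 367, 358 and 351 CPM and 318, 322 and 337 CPM in UN-SCC679. The heavy chain gene H2-K1 went up 3.99-fold in LLC and 1.06-fold in UN-SCC679; heavy chain genes share sequence and differ between strains, so its counts are uncertain. The peptide transporter gene Tap1, chosen after its values were seen, rose 3.46-fold and 1.49-fold. Of 20 interferon response genes, 6 rose and 9 fell in LLC, 4 rose and 10 fell in UN-SCC679, 5 were opposite, and the medians were -0.06 and -0.18. Bst2, an antiviral tether, rose 2.24-fold and fell 2.23-fold, and the signalling factor gene Stat2 rose 2.5-fold in LLC with an effect of -0.03 in UN-SCC679.

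Targets of NF-kB and of ERK signalling held opposite genes of both kinds. Of 24 TNF and NF-kB targets, 14 rose in LLC and 17 in UN-SCC679, 9 rose in both, none fell in both and 7 were opposite, with medians of 0.19 and 0.32. The chemokine gene Cxcl5 stood at 13.6, 13.8 and 15.1 CPM and 11.3, 10.3 and 10.8 CPM in LLC and at 13.3, 12.1 and 12.2 CPM and 57.2, 58.6 and 65.4 CPM in UN-SCC679. Ccl2, a monocyte attractant chosen after its values were seen, fell 2.02-fold in LLC, from 101, 99.8 and 98.2 CPM to 48.2, 51.7 and 48.04 CPM, and went from 0.3605, 0.489 and 0.427 CPM to 1.66, 1.98 and 1.83 CPM in UN-SCC679. The feedback inhibitor gene Tnfaip3, chosen likewise, rose 2.06-fold and fell 1.62-fold, and the adhesion gene Vcam1 rose 2.12-fold and 1.22-fold.

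Of 23 ERK targets, 15 rose in LLC and 12 in UN-SCC679, 5 rose in both and 9 were opposite, 6 of them with LLC up. The medians were 0.21 and 0.34. Ligands of the EGF receptor parted: Hbegf stood at 17.2, 15.9 and 17.7 CPM and 58.3, 57.5 and 58.7 CPM in LLC and at 19.3, 18.97 and 18.6 CPM and 9.52, 10.1 and 8.33 CPM in UN-SCC679, whereas Areg rose 1.796-fold and 9.74-fold. Epha2, an ephrin receptor, rose 1.46-fold and fell 1.47-fold, and Dusp4, a phosphatase that limits MAP kinases, rose 2.67-fold and fell 1.23-fold. Egr1, an immediate-early factor, went from 1.25, 1.405 and 0.946 CPM to 0.942, 0.748 and 0.784 CPM in LLC and from 8.03, 6.31 and 7.15 CPM to 65.2, 64.6 and 65.7 CPM in UN-SCC679, with overlapping arms in neither line. Areg, Dusp4 and Egr1 were chosen after their values were seen.

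Of 23 p53 targets, 12 rose in LLC and 10 in UN-SCC679, 5 in both, and 7 were opposite, with medians of 0.27 and 0.09. Gadd45a, a growth arrest gene, rose 2.75-fold and fell 1.295-fold, and the kinase gene Plk2 rose 2.65-fold and 1.06-fold. More genes of amino acid supply fell than rose in each line. Of 27 genes of the ATF4 response, 18 fell in LLC and 19 in UN-SCC679, 12 in both, and 8 were opposite, with medians of -0.20 and -0.46. Mthfd2, of mitochondrial folate metabolism, and the stress gene Nupr1 rose 1.13-fold and 1.59-fold in LLC and fell 1.53-fold and 1.94-fold in UN-SCC679. Of 20 aminoacyl-tRNA synthetases, which charge transfer RNAs, 19 fell in UN-SCC679 and 12 in LLC, 11 in both, and the medians were -0.12 in LLC and -0.41 in UN-SCC679. Aars fell 1.19-fold and 1.67-fold, and Wars fell 1.49-fold in UN-SCC679 with an effect of 0.04 ± 0.0183 (SE) in LLC. Of 35 autophagy genes, 15 rose and 12 fell in LLC, 10 rose and 11 fell in UN-SCC679, 6 were opposite, and the medians were 0.05 and 0.01. Gabarapl1, an ATG8 family member, rose 2.49-fold and 1.21-fold, and Wipi1, a phosphoinositide-binding protein, rose 1.89-fold in LLC. Of 29 glycolysis and hypoxia genes, 15 rose in LLC and 14 in UN-SCC679, 9 in both, and 8 were opposite, with medians of 0.16 and 0.04. Vegfa, the angiogenic growth factor, fell 1.26-fold and rose 1.61-fold, and P4ha1, a collagen hydroxylase, rose 2.17-fold in LLC with an effect of 0.02 in UN-SCC679.

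Matrix genes moved apart gene by gene. All 26 collagen and matrix genes with a level in both lines had a called difference, 13 higher and 13 lower in UN-SCC679, and 14 were opposite, 9 of them with LLC up. The medians were 0.34 in LLC and -0.04 in UN-SCC679. Col6a1, a chain of collagen VI, rose 1.24-fold in LLC, from 74.2, 74.3 and 74.3 CPM to 94.8, 91.1 and 91.4 CPM. In UN-SCC679 it rose 20.1-fold, from 27.6, 27.9 and 28.2 CPM to 572, 553 and 555 CPM. Col1a2, a chain of collagen I, rose in LLC from 1.49, 1.75 and 1.92 CPM to 5.98, 6.58 and 6.65 CPM and fell 1.36-fold in UN-SCC679, from 11412, 11668 and 11832 CPM. Lama5, a laminin chain, went from 584, 595 and 615 CPM to 1117, 1113 and 1115 CPM in LLC and from 96.4, 99.5 and 100.4 CPM to 16.98, 19.1 and 17.3 CPM in UN-SCC679. The integrin ligand gene Tgfbi fell 1.65-fold and rose 7.78-fold, and fibronectin, Fn1, rose 1.25-fold and 4.54-fold. Lama5, Tgfbi and Fn1 were chosen after their values were seen.

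Lineage markers moved as follows. Where counts are over the markers tested, whatever their level, they are read beside the shares of all 15399 genes tested. Of these, 32.5% rose and 32.9% fell in LLC, and 30.0% rose and 29.7% fell in UN-SCC679. Of 14 mesenchymal markers, 8 rose in each line, 6 in both, and 3 were opposite, with medians of 0.14 and 0.25. Prrx1, a mesenchymal homeobox factor, rose 1.71-fold in LLC and in UN-SCC679 went from 0.0961, 0.0444 and 0.0753 CPM, 4 counts or fewer per library, to 9.48, 9.96 and 9.57 CPM. Among epithelial markers, 2 of 14 had a level in both lines: the keratin Krt18 fell 1.74-fold in UN-SCC679 and Krt7 rose 2.22-fold there, with LLC effects of 0.03 and 0.10. Of the 7 tested at any level, Krt8 fell in both lines, in UN-SCC679 from 438 to 284 CPM and in LLC from 0.604 to 0.0662 CPM as group means. Krt19 also rose in UN-SCC679, from 0 to 0.318 CPM, under the level of 1 CPM. In LLC, Ocln rose from 7.49 to 9.39 CPM and Grhl2 from 0.535 to 1.25 CPM. The 14 epithelial markers summed to 572 to 596 CPM in UN-SCC679 controls and 361 to 382 CPM with sh3. No squamous marker had a level in both lines. Of the 10 of 16 that were tested, 6 rose and 1 fell in UN-SCC679, and none rose and 3 fell in LLC, where all were under 1 CPM. The basal cell factor Trp63 went from 2.19 to 13.5 CPM, the basal keratin Krt14 from 3.07 to 14.1 CPM and the keratin Krt6a from 0.453 to 1.37 CPM in UN-SCC679, as group means, whereas Pkp1 fell from 202 to 175 CPM. The number of these markers at 1 CPM or more there was 6 with the empty vector and 9 with sh3. Of 3 alveolar and club cell markers with a level in both, Abca3, a lipid transporter, rose 1.13-fold and fell 1.09-fold, and Ager, a type I cell receptor, went from 0.3605, 0.578 and 0.226 CPM to 1.66, 1.44 and 1.58 CPM in UN-SCC679 with a LLC effect of -0.24 ± 0.251 (SE). The last of the 3, the homeodomain gene Hopx, rose 5.93-fold in LLC, from 1.78 to 10.6 CPM, and 7.3-fold in UN-SCC679, from 1.82 to 13.3 CPM, and its difference of 0.30 was not called (adjusted p = 0.104). Trp63, Krt14, Krt6a, Pkp1 and Hopx were chosen after their values were seen. Of 5 fibroblast markers, 4 were opposite, 3 of them with UN-SCC679 up, and Pdgfra, a growth factor receptor, rose 2.01-fold and 8.21-fold. The 11 fibroblast markers summed to 1229 to 1363 CPM in LLC and 13577 to 16034 CPM in UN-SCC679, lower with sh3 in both. In UN-SCC679 Col1a2 alone fell, from 11637 to 8560 CPM, and 7 of the 10 tested rose, among them Col1a1, which went from 523 to 1082 CPM. In LLC 4 rose and 4 fell, among them Col3a1, which went from 1300 to 1174 CPM. Col1a1 and Col3a1, also collagen genes, were chosen after their values were seen. The single leukocyte marker with a level in both, Cd68, had effects of 0.37 and -0.03, neither called. Of the 6 leukocyte markers tested, 3 rose and none fell in UN-SCC679, and none was called in LLC. As group means in UN-SCC679, Csf1r went from 0.795 to 2.58 CPM, Fcer1g from 0.677 to 2.37 CPM and Laptm5 from 0 to 0.590 CPM. The single endothelial marker with a level in both, Eng, rose 1.22-fold in LLC, from 101 to 123 CPM. In UN-SCC679 it rose 2.297-fold, from 2.20 to 5.03 CPM.

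The effects also differed by chromosome, most clearly in UN-SCC679. The median effect there was 0.24 on chromosome 17, 0.26 on chromosome 19, 0.15 on chromosome 16 and -0.22 on chromosome 8, whereas in LLC the same chromosomes had medians of -0.03, 0.01, -0.02 and 0.00. LLC had its own extremes, at -0.21 on chromosome 18 and 0.11 on chromosome 1, where Dstyk lies. The median difference was 0.32 on chromosome 17, 0.28 on chromosome 19 and -0.21 on chromosome 8, and the share of opposite genes was 27.3%, 28.9% and 29.1% there, against 23.0% over all chromosomes. When each chromosome's median was taken out of each line's effect, 1987 of the 2558 opposite genes and 185 of the 226 strong ones were still in their class. Among the genes named above, Asah1, Msmo1, Nqo1, Aars, Bst2, Calr, Mvd, Lamp1, Dusp4 and Mcm5 lie on chromosome 8, Pim1, Arhgap28, Angptl4, H2-K1, Vegfa, Abca3, Ager and Tap1 on chromosome 17, and Blnk, Rab3il1, Cpt1a, Kif11, Ankrd1, Pdcd4 and Acta2 on chromosome 19. Whether copy number differed between the arms was not tested.

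**Figure D5:**
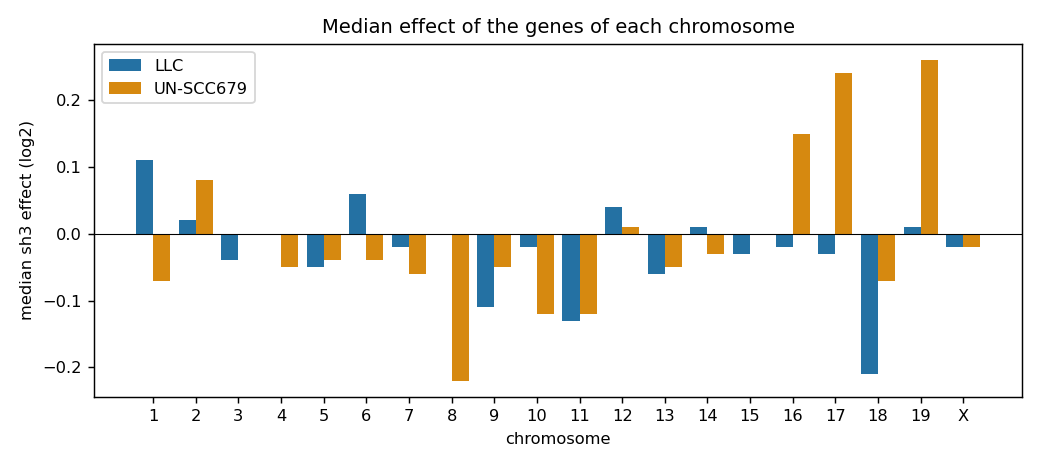
Median log2 effect of sh3 over the genes of each chromosome with a level in both lines, in LLC (blue bars) and UN-SCC679 (orange bars). Bars of UN-SCC679 reach 0.24 and 0.26 on chromosomes 17 and 19 and -0.22 on chromosome 8, and the LLC bar reaches -0.21 on chromosome 18.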

How the data were processed

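RNA of 12 libraries was examined, made with a stranded mRNA kit per the labels' protocols. The build mm10 and the tools kallisto and sleuth are named per the submitters' processing notes; versions are not given in the sources used here. The authors deposited estimated counts per transcript, which are not whole numbers and not normalized. Of 118489 transcripts listed, 116816 were matched to GENCODE M21 genes (GRCm38, the same assembly); the 1673 others held 0.515% to 0.593% of a library's counts and were left out. Counts were summed per gene and rounded, and a symbol held by several gene IDs was given to the ID with the most counts. Because kallisto divides a read between all transcripts compatible with it, genes with close copies are uncertain. The protocols name no molecular identifiers.

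With R 4.3.3 and edgeR 4.0.16, 1 model with 4 groups was fitted to all 12 libraries (TMM scaling, default filter with a minimum count of 10 and total of 15, quasi-likelihood test, Benjamini-Hochberg over all 15399 genes, threshold 0.05). Standard errors are the log2 fold change divided by the root of F. CPM values are after TMM scaling. On simulated counts, the test of the difference recovered 88 of 100 genes changed by 0.5 and 98 of 100 changed by 1 on the log2 scale, among 14886 genes run. The simulated lines had the same baseline, all genes had the same spread, and the changed genes were drawn from well-counted ones. The shares recovered therefore do not carry over to genes with low counts or unlike baselines. Library pairs within a group had a mean chi-square per gene of 2.72 to 5.01, so none was a copy. Alternatives used DESeq2 1.42.0 and limma 3.58.1, the latter on log2(TPM + 1).

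Named genes are Dstyk, the leading genes of each strong class by size of effect (mean log2 CPM of at least 3, curated symbol, no overlap between arms where an effect is called), the 2 members per list with the smallest p of the difference, 37 genes chosen after their values were seen, and the markers so described. Some genes that this rule selects are not reported here. Members, lists and classes were chosen with earlier results of these data known. The 6 UN-SCC679 libraries with pLENTI6 vectors, empty or titled as overexpressing DSTYK, were not analysed here.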

Additional observations from a re-analysis of the deposited data

Results flagged for a closer look

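The difference of the sh3 effect between the lines passed the test for 110 of the 118 genes examined by name, and by 2-fold or more for 83. These genes were chosen by their effects, by the p of this difference or after their values were seen, so nothing is read from the count, which over all 15399 genes tested was 59.9%, and 15.5% at 2-fold or more. Each was picked out because the effects of the same hairpin differed between the 2 lines. Differences are UN-SCC679 minus LLC on the log2 scale, by edgeR's quasi-likelihood test with Benjamini-Hochberg adjustment.

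Among genes that rose in LLC and fell in UN-SCC679, the difference was -4.01 for Ccn1, -3.59 for Gpnmb, -3.37 for Lama5, -2.80 for Hbegf, -2.77 for Atf3, -2.76 for Mid2, -2.76 for Dkk2, -2.68 for Ankrd1, -2.64 for Thbs1 and -2.42 for Gadd45b. It came to -2.34 for Col1a2, -2.32 for Bst2, -2.30 for Ctsc, -1.94 for Sdf2l1, -1.83 for Gadd45a, -1.74 for Tnfaip3, -1.72 for Dusp4, -1.62 for Nupr1, -1.60 for Ddit3 and -1.59 for Mvd. Further differences of this kind were -1.42 for Fdps, -1.38 for Msmo1, -1.28 for B2m, -1.22 for Asah1, -1.19 for Hyou1, -1.14 for Tpm1, -1.14 for Atp6v0b, -1.14 for Hspa5, -1.10 for Epha2 and -1.05 for Pdia6. In the same class it measured -0.97 for Calr, -0.96 for Atp6v1g1, -0.89 for Hsp90b1, -0.78 for Mthfd2 and -0.31 for Abca3.

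Among genes that fell in LLC and rose in UN-SCC679, the difference was 0.37 for Rpl7a, 0.73 for Kif11, 0.78 for Kif20a, 0.89 for mt-Nd1, 0.99 for Uqcrh, 1.02 for Vegfa, 1.17 for G6pdx, 1.26 for Sfpq, 1.28 for mt-Nd3 and 1.33 for Pgd. For others of this class it was 1.75 for mt-Cytb, 2.50 for Cpt1a, 2.66 for Cxcl5, 3.10 for Ccl2, 3.22 for Tle2, 3.44 for S100a4, 3.53 for Ackr3, 3.68 for Tgfbi, 3.73 for Blnk and 3.73 for Egr1. Larger values were 4.77 for Gpr141, 9.03 for Ppl and 11.51 for Peg10.

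Where the effect passed the test in LLC and not in UN-SCC679, the difference was -2.43 for Pim1, -2.42 for Ptgs2, -1.35 for Stat2, -1.10 for P4ha1, -0.91 for Wipi1, 0.52 for Atp5a1, 1.23 for Tyms, 1.69 for Vcan, 1.76 for Ngly1 and 1.77 for Mgst3. Where it passed in UN-SCC679 and not in LLC, the difference was -1.99 for Myh10, -1.62 for Fxyd5, -0.83 for Krt18, -0.61 for Wars, 1.06 for Krt7, 2.23 for Ager, 4.80 for Ly6e, 5.91 for Arhgap28 and 9.26 for Gas7.

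Among genes that moved the same way in both lines by unlike amounts, the negative differences were -2.21 for Pfn2, -1.95 for Sh3bgrl2, -1.91 for H2-K1, -1.32 for Plk2, -1.21 for Tap1, -1.06 for Igfbp4, -1.04 for Gabarapl1, -0.80 for Vcam1, -0.68 for Sema3c and -0.62 for Lamp1. Closer to 0 were -0.57 for mt-Co1, -0.52 for Tnc, -0.48 for Aars, -0.34 for Rpl13a and -0.16 for Gclm. The positive ones were 0.40 for Dstyk, 0.59 for Mcm7, 0.64 for Srxn1, 0.71 for Mcm5, 0.92 for Eng, 1.23 for Srsf1, 1.28 for Kcnh2, 1.35 for C1s1, 1.51 for Gstm1 and 1.86 for Fn1. Larger positive differences were 2.03 for Pdgfra, 2.44 for Areg, 3.61 for Sorcs2, 4.01 for Col6a1, 4.28 for Angptl4, 4.37 for Nqo1, 6.03 for Ptgs1 and 6.26 for Prrx1.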

How the results depend on the processing

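Of 502 recomputed counts and Dstyk differences, 482 stayed within 1.5 times the reported count or kept their call. With library size as the only scaling, 11 genes fell in UN-SCC679 alone. With limma on log2(TPM + 1), 1284 differences were called and at least 2-fold, 96 genes had a called difference with neither effect called and 1413 had nothing called. The strong classes then held 74 and 58 opposite genes (LLC up, UN-SCC679 up), 41 up and 51 down in LLC alone, 33 up in UN-SCC679 alone and 226 shared increases. A level of 5 CPM in both lines, which leaves fewer genes, gave 33 and 493 for the former pair, 75 and 55 opposite genes and 187 shared increases. A limit of 2-fold in each line left 24 and 25 opposite genes, 138 shared increases, 18 shared decreases and 37 alike in size.

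Leaving out each library in turn gave 8974 to 9045 called differences, 2427 to 2530 opposite genes and a Dstyk difference of 0.34 to 0.43. With the per-chromosome offset the Dstyk difference was larger, at 0.58. The share of called differences that were higher in UN-SCC679 was between 48.3% and 55.5% over all settings. It was under an equal split at 49.4% with DESeq2, at 48.3% with the 1 CPM filter, and at 48.5%, 48.7% and 48.8% without LLC control 1, UN-SCC679 control 1 and UN-SCC679 control 3; the cause was not tested. Among named genes, 4 differences changed sign or call besides Tnc, given above: with limma on log2(TPM + 1), Kcnh2 was at -0.08 (adjusted p = 0.755), Rab3il1 at -1.08 and Dmxl2, newly called, at -0.46, and with the per-chromosome offset Pdcd4 was at -0.15; the cause was not tested. Of 540 recomputed list medians of the difference, 169 moved by at least 1 SD between replicates, by 0.47 at most. They turned sign in at least 1 setting for 6 of 27 lists: ATF4 response, G2 and mitosis, glycolysis and hypoxia, collagens and matrix, epithelial and mesenchymal markers.

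Replicate numbers were not treated as pairs. Correlations of same-numbered libraries ranged from -0.0578 to 0.159, with 1 of 6 over 0.1. With the number as a block within each line, 9058 differences were called, 2488 genes were opposite, the Dstyk difference was 0.40, and no call of a named gene changed.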
